A study of Mus musculus with 6 samples.

Results

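The genes of the brain's blood vessels were followed in whole mouse brain RNA from animals lacking TRMT1L, a protein related to the tRNA methyltransferase TRMT1, and from wild-type animals. They are 10 marker genes, chosen by symbol in GENCODE M21: Cldn5, Flt1, Pecam1, Slc2a1, Abcb1a and Mfsd2a for endothelial cells and Pdgfrb, Rgs5, Vtn and Acta2 for mural cells, out of 55450 annotated genes. All 10 were among the 21237 genes with enough counts to be tested. The study sequenced long RNA (size-selected total RNA) from 3 libraries labelled TRMT1L KO and 3 labelled WT, described as biological triplicates. The labels do not name the allele, strain, sex or age, and nothing says whether the animals were perfused to clear blood.

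Brain capillaries are lined by endothelial cells that seal the space between blood and tissue with tight junctions and move nutrients across by dedicated transporters, which together form the blood-brain barrier. Pericytes wrap the capillaries, depend on PDGF from the endothelium and help to maintain the barrier, while smooth muscle cells ring the arteries and set their diameter. Both kinds of mural cell, like the endothelium, are a minority in brain tissue. In RNA from a whole brain, fewer cells of a type and less RNA per cell cannot be told apart.

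None of the 10 genes passed edgeR's test between genotypes at an adjusted p-value under 0.05, nor with limma-voom. An unadjusted p-value under 0.05 was found for 1 of them in edgeR and 0 in DESeq2. Over all 21237 genes tested, 7.92% had one in edgeR and 1160 genes had one in DESeq2. DESeq2 gave an adjusted p-value to 3 of the 10, none under 0.05. For 7 of them all 6 libraries lay within 1.5-fold of each other, and no marker in the set was absent from any library. The other 3 genes, Slc2a1, Mfsd2a and Cldn5, varied more than 2-fold, and KO library 2 was their highest or lowest library. In KO library 2 the transporters Slc2a1 and Mfsd2a stood at 1.94 and 2.10 times the mean of the other 5 libraries, while the tight junction gene Cldn5 stood at 0.570 times theirs. KO library 3 lay as far out for Cldn5 on the other side, at 1.70 times the mean of the others. To show the 3 genes that differed in this way, the bases just before their transcription starts are printed here from RefSeq (build GRCm38.p6), which held such a sequence for 8 of the 10 genes. The Slc2a1 sequence lies at chr4:119108495-119108710 on the plus strand, the Mfsd2a sequence at chr4:122961189-122961438 on the minus strand and the Cldn5 sequence at chr16:18776597-18776846 on the plus strand. Each ends at the base before the GENCODE start of the gene and runs in the direction of transcription. The Slc2a1 stretch has 216 bases and both others have 250, because GENCODE starts Slc2a1 34 bases before RefSeq does. Capitals mark matches, on either strand, to a GC box in Slc2a1 and Cldn5 and to the core of the hypoxia response element in Mfsd2a.
Slc2a1: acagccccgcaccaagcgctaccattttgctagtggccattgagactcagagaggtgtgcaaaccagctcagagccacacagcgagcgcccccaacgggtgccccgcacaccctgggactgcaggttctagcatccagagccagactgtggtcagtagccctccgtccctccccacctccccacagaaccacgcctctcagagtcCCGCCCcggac
Mfsd2a: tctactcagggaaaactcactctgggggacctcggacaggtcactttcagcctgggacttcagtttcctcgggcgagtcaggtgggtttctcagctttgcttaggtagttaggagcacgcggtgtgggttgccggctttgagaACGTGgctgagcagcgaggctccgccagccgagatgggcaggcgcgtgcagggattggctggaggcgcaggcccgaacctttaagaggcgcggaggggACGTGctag
Cldn5: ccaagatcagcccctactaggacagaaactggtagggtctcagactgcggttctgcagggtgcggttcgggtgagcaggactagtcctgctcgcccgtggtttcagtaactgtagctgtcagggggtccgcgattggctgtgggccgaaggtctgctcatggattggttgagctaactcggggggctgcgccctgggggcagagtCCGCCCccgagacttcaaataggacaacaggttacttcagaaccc

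The GC box was searched on both strands as GGGCGG, and the hypoxia core as ACGTG. Slc2a1 held 1 GC box, whose first base lies 11 bases before the gene, and Cldn5 held 1 GC box at 45 bases. A GC box occurs in 32.7% of all 32851 RefSeq windows of 250 bases before a start. Mfsd2a held the hypoxia core at 107 and at 9 bases before the gene, a match found in 16.6% of all windows. None of the 3 sequences held the glucocorticoid receptor core AGAACA, which 16.1% of windows hold. Nor did any hold the forkhead site GTAAACA (3.17% of windows), the TATA box TATAAA (12.4%) or the CArG box of serum response factor (1.47%). The core GGAA of ETS factors, which are known regulators of endothelial genes, occurs in 93.4% of all windows and was found 2 times in Mfsd2a and in neither of the other two. A match of this kind is a description of the letters and not a measured binding site.

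Counts in genes on the sequenced strand lay between 31201119 and 36145961 per library, and the lowest count of any of the 10 genes in any library was 295. Trmt1l itself had between 1034 and 1279 counts in the WT libraries and between 93 and 106 in the KO libraries, on the side the labels state. By edgeR's quasi-likelihood method for genotype, 2 of the 21237 genes (0.00942%) passed an adjusted p-value of 0.05, both lower in KO and neither a vessel gene. Levels below are CPM, counts scaled to 1000000 per library with TMM factors, unless a per-length level is named, and log2 fold changes are KO over WT with their standard error (SE).

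**Figure D1:**
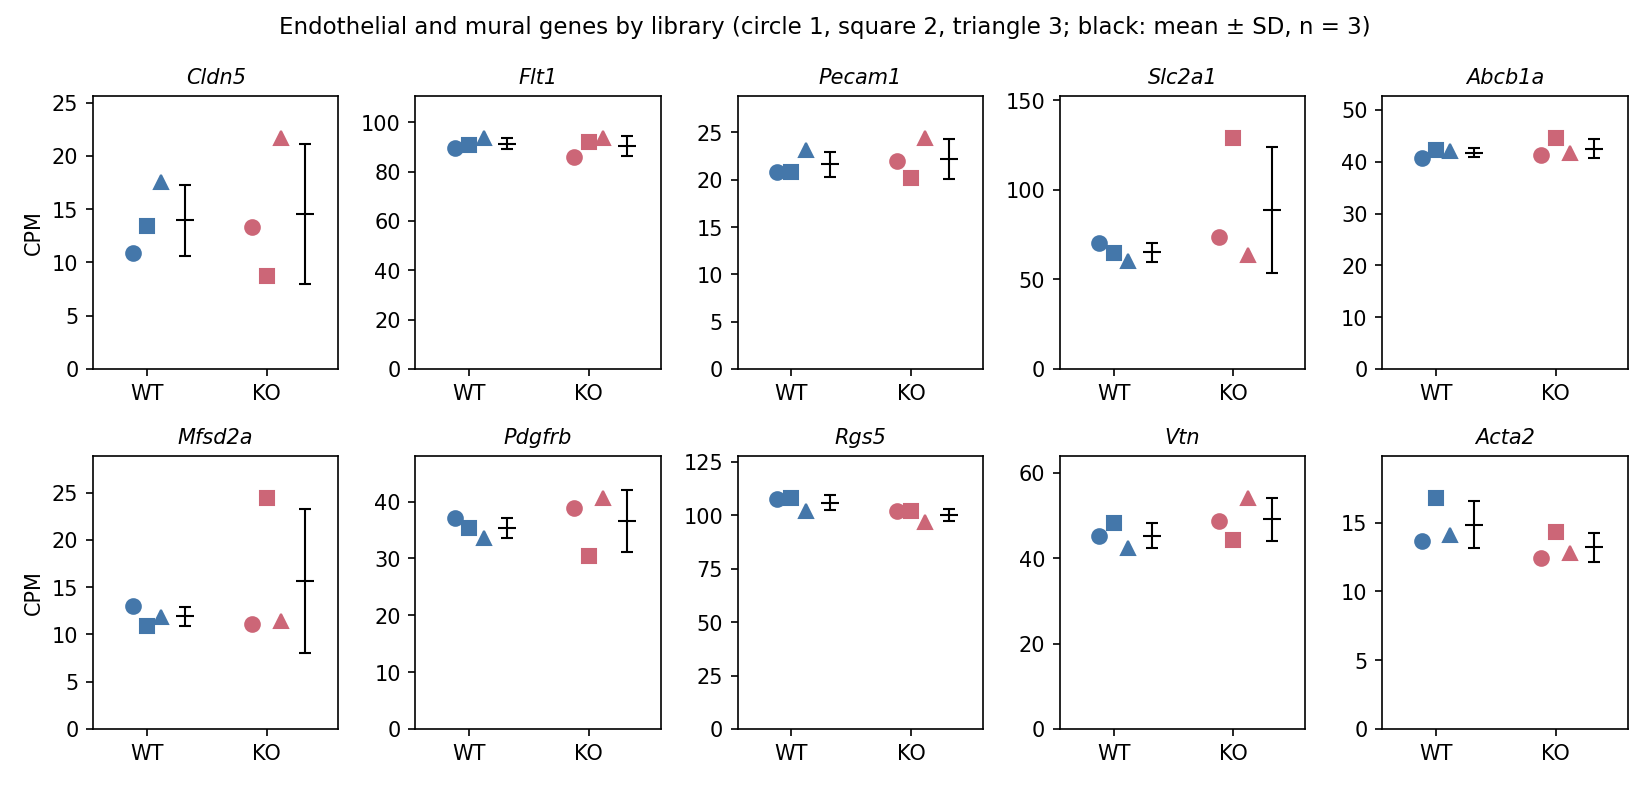
CPM of each gene (vertical axes from 0) in 3 WT (blue) and 3 KO (red) libraries, with replicate 1 as a circle, 2 as a square and 3 as a triangle, and the mean with its SD in black. KO library 2 stands apart at 129 CPM for Slc2a1 and 24.5 CPM for Mfsd2a and is the lowest of the 6 for Cldn5 at 8.76 CPM.

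Pecam1 (ENSMUSG00000020717.19, chromosome 11 from 106654217 to 106750628) encodes CD31, an adhesion protein of endothelial cell contacts and the general marker of endothelium. It measured 20.8, 20.9 and 23.2 CPM in WT libraries 1 to 3 and 22.0, 20.2 and 24.5 CPM in KO libraries 1 to 3. The groups overlapped, with KO library 3 highest and KO library 2 lowest. KO over WT, the log2 fold change was 0.039 (SE 0.0813), with a 95% interval from -0.14 to 0.22 (edgeR adjusted p = 0.930).

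Flt1 (ENSMUSG00000029648.13, chromosome 5 from 147561604 to 147726011) encodes a VEGF receptor that binds VEGF and limits its supply to the main signalling receptor. It was among the steadiest of the set at 89.4, 90.8 and 93.6 CPM in WT and 85.9, 91.8 and 93.7 CPM in KO. The highest library was 1.09 times the lowest, and both groups spanned nearly the same values. The fitted log2 fold change was -0.012 (SE 0.0496) and its 95% interval ran from -0.12 to 0.096 (edgeR adjusted p = 0.969).

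Cldn5 (ENSMUSG00000041378.2, chromosome 16 from 18776847 to 18778262, a single transcript) encodes claudin-5, the main claudin of the brain's endothelial tight junctions. It measured 10.9, 13.5 and 17.5 CPM in WT and 13.3, 8.76 and 21.7 CPM in KO. The KO libraries held both the highest and the lowest value, 2.48-fold apart, with every WT library between them. The SD of its log2 CPM was 0.34 within WT and 0.65 within KO, higher than in 89.7% and 97.9% of all genes tested, where the medians were 0.099 and 0.11. The log2 fold change of 0.069 (edgeR adjusted p = 0.967, SE 0.260) had a 95% interval from -0.50 to 0.64, which leaves a wide range of differences undetectable here. It was 0.33 without KO library 2 and -0.34 without KO library 3, and a correction for GC content turned it to -0.039.

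Slc2a1 (ENSMUSG00000028645.11, chromosome 4 from 119108711 to 119137983) encodes GLUT1, which carries glucose across the barrier. Its levels were 70.5, 64.9 and 60.1 CPM in WT and 73.9, 129 and 63.8 CPM in KO. KO libraries 1 and 3 lay in or just above the WT range and KO library 2 far above it. The WT mean was 65.2 ± 5.24 CPM and the KO mean 89.0 ± 35.2 CPM (SD, n = 3). The log2 fold change was 0.45 (SE 0.198) with a 95% interval from 0.014 to 0.88, and it did not pass the threshold (edgeR adjusted p = 0.622, unadjusted p = 0.0442). Slc2a1 was the 1 gene of the 10 with an unadjusted p-value under 0.05, which 7.92% of all genes tested had (4.54% higher and 3.38% lower in KO). The difference rested on KO library 2, since without it the log2 fold change was 0.077. Without a filter on low counts the edgeR adjusted p was 9.30e-12. In that fit the log2 fold change stayed at 0.45 but its SE was 0.058, although the counts of the libraries were the same. With DESeq2 the adjusted p was 0.651. An antisense gene, Gm12868, covers 2.99% of its exon bases, and the counting used strand.

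Mfsd2a (ENSMUSG00000028655.11, chromosome 4 from 122946850 to 122961188) encodes the carrier that brings lysophosphatidylcholine with docosahexaenoic acid into the brain and holds back vesicle transport through the endothelium. It measured 13.0, 10.9 and 11.8 CPM in WT and 11.1, 24.5 and 11.4 CPM in KO. KO libraries 1 and 3 lay within the WT range, and KO library 2 alone was high. Its log2 fold change was 0.39 (SE 0.247), with a 95% interval from -0.15 to 0.93 (edgeR adjusted p = 0.725), and it was -0.086 without KO library 2. Without a filter on low counts it passed (edgeR adjusted p = 0.00735), with a smaller SE of 0.0949 at the same log2 fold change of 0.39.

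Abcb1a (ENSMUSG00000040584.8, chromosome 5 from 8660077 to 8748575) encodes P-glycoprotein, the efflux pump that returns many drugs to the blood. In contrast to both carriers it was even across libraries, at 40.8, 42.3 and 42.1 CPM in WT and 41.3, 44.7 and 41.6 CPM in KO. KO over WT, the log2 fold change was 0.028 (SE 0.0544) with a 95% interval from -0.091 to 0.15 (edgeR adjusted p = 0.925), and with a correction for GC content it was 0.058. Its paralog Abcb1b shares sequence with it: of 4948 stretches of 50 bases in the longest Abcb1a transcript, 768 (15.5%) also occur in Abcb1b and 127 in Abcb4. A further gene, Gm42686, shares 149 because it overlaps Abcb1a on the opposite strand. How reads from shared stretches were counted was not tested, so the level of Abcb1a is uncertain. Abcb1b itself measured 5.77, 5.199 and 5.38 CPM in WT and 5.70, 3.27 and 5.09 CPM in KO, lowest in KO library 2 (log2 fold change -0.22, SE 0.174, edgeR adjusted p = 0.786), and its log2 fold change was -0.017 without that library.

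**Figure D2:**
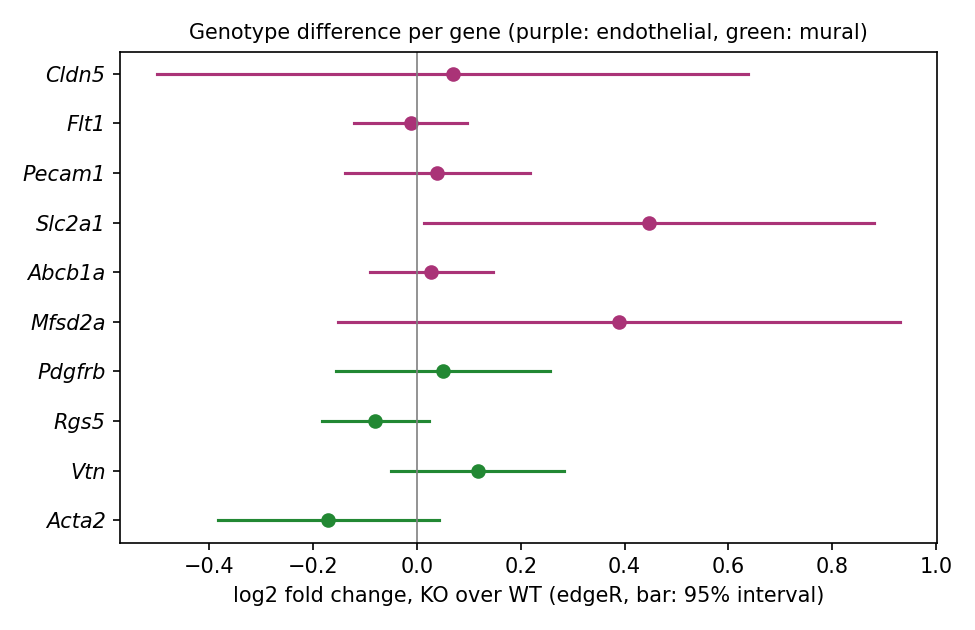
Log2 fold change of each of the 10 genes (horizontal axis, KO over WT; points) with its 95% interval from the edgeR fit (bars, purple for endothelial and green for mural genes). The intervals of Flt1 and Abcb1a are narrow and span 0, while those of Cldn5, Mfsd2a and Slc2a1 are the widest of the 10.

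Among the mural genes, Pdgfrb (ENSMUSG00000024620.11, chromosome 18 from 61045150 to 61085061) encodes the PDGF receptor through which endothelial PDGF-B holds pericytes on the vessel. It measured 37.1, 35.4 and 33.6 CPM in WT and 38.8, 30.4 and 40.7 CPM in KO. As for Cldn5, KO library 2 was lowest and KO library 3 highest, on either side of the WT range. The fitted log2 fold change was 0.050 (SE 0.0943) with a 95% interval from -0.16 to 0.26 (edgeR adjusted p = 0.921), and it was -0.0064 with a correction for GC content.

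Rgs5 (ENSMUSG00000026678.10, chromosome 1 from 169655501 to 169695813) encodes a regulator of G-protein signalling that is abundant in pericytes. It measured 107.5, 108.3 and 102.1 CPM in WT and 101.9, 101.9 and 96.9 CPM in KO. Every KO library lay below every WT library, by a narrow margin over WT library 3. Rgs5 was the 1 gene of the 10 whose groups did not overlap, against 14.4% of all genes tested (6.97% with KO below and 7.46% with KO above WT). The log2 fold change of -0.080 (SE 0.0470) had a 95% interval from -0.18 to 0.023 and did not pass (edgeR adjusted p = 0.702), and with a correction for GC content it was -0.023.

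Vtn (ENSMUSG00000017344.4, chromosome 11 from 78499091 to 78502324) encodes vitronectin, an adhesive protein that brain pericytes secrete. It measured 45.1, 48.3 and 42.4 CPM in WT and 48.8, 44.2 and 54.2 CPM in KO, with KO library 3 above all others. The log2 fold change was 0.12 (SE 0.0764) with a 95% interval from -0.050 to 0.28 (edgeR adjusted p = 0.732), and it was 0.040 without KO library 3 and 0.19 without KO library 2, and 0.057 with a correction for GC content.

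Acta2 (ENSMUSG00000035783.9, chromosome 19 from 34241090 to 34255590) encodes the actin of smooth muscle. It measured 13.7, 16.8 and 14.1 CPM in WT and 12.4, 14.3 and 12.8 CPM in KO, overlapping through KO library 2. Its log2 fold change was -0.17 (SE 0.0970) with a 95% interval from -0.38 to 0.042 (edgeR adjusted p = 0.692), and -0.073 without WT library 2. Although actins form a family of close relatives, 0.353% of stretches of 50 bases in the Acta2 transcript recur in another gene. The muscle actins next to it were low: Actc1 had 0 or 1 count per library and Actg2 between 1 and 9, both too few to be tested, and Acta1 measured between 3.0 and 4.18 CPM. The non-muscle actins Actb and Actg1, present in every cell, were far more abundant and had log2 fold changes of 0.088 (SE 0.0400, edgeR adjusted p = 0.628) and 0.059 (SE 0.0491, edgeR adjusted p = 0.792), the latter 0.024 without KO library 3. Acta2 also had 119 counts on the strand opposite to the gene over all libraries, or 3.99% of its stranded counts, against between 0.0340% and 0.415% for the other 9 genes. GENCODE lists no gene that overlaps Acta2, and the source of these reads was not tested.

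Levels were then compared between genes per length, as counts per kilobase of merged exons scaled to 1000000 in each library. Over all 6 libraries Vtn (88.1 ± 7.41), Rgs5 (86.2 ± 6.12) and Slc2a1 (83.2 ± 27.1, SD, n = 6) were the most abundant and did not differ beyond their spread. Cldn5 followed at 38.2 ± 11.9, above Abcb1a at 29.2 ± 1.19 in 5 of 6 libraries. Flt1 (25.5 ± 1.02), Pdgfrb (24.9 ± 2.49), Acta2 (24.3 ± 3.39) and Mfsd2a (23.2 ± 8.64) were close together, each within 1 SD of the next. Pecam1 was lowest at 13.3 ± 0.825 and below each other gene in every library. The place of Flt1 depended on the length used, because its merged exons span 13504 bases and its longest transcript 6895: with longest transcripts its level was 40.8, ahead of Cldn5 at 31.1. Those lengths also brought Pecam1 to 19.7, level with Mfsd2a at 19.8. With either length, Vtn, Rgs5 and Slc2a1 stood above the other 7 genes.

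**Figure D3:**
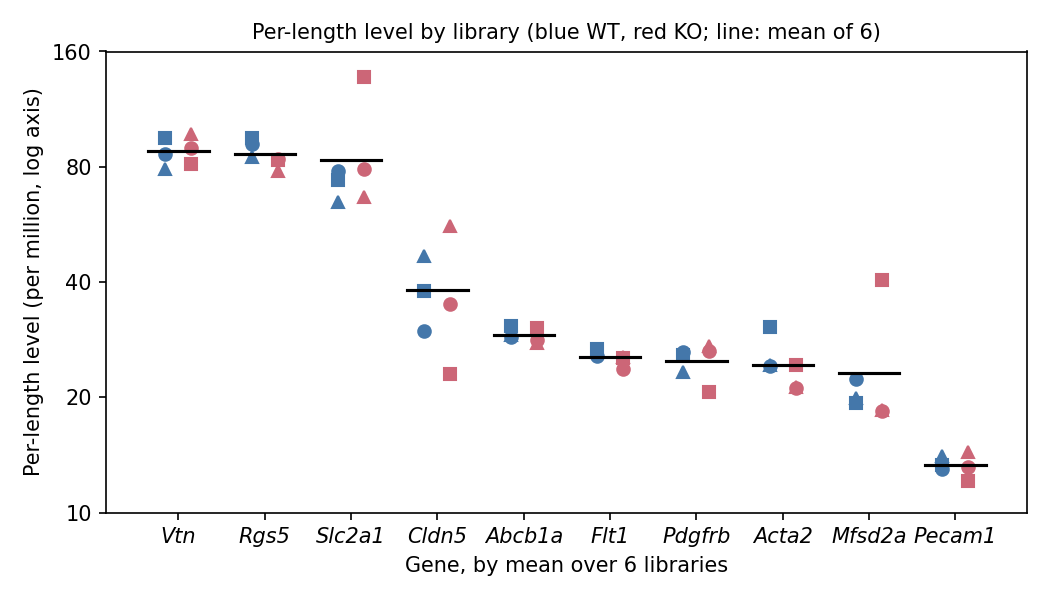
Per-length level (log axis, counts per kilobase of merged exons scaled to 1000000) of the 10 genes in WT (blue) and KO (red) libraries, ordered by the mean of 6 libraries (line). Vtn, Rgs5 and Slc2a1 form the upper group, and KO library 2 (red square) is highest for Slc2a1 and Mfsd2a and lowest for Cldn5, Pecam1 and Pdgfrb.

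The pattern across libraries was described next, with no test because it concerns single libraries. KO library 2 held the highest value of 3 of the 10 genes and the lowest of 3, where it was highest for 21.8% and lowest for 21.5% of all genes tested. Its excess over the other 5 libraries, on the log2 scale, was larger than for 99.7% of all genes in Slc2a1 (0.96) and 99.8% in Mfsd2a (1.07), and its deficit in Cldn5 (-0.77) was exceeded by 2.29% of genes. KO library 3 held the highest value of 5 of the 10 genes, against 18.7% of all genes, and its Cldn5 excess of 0.80 was larger than for 99.1% of them. It was lowest for 1 of them, Rgs5, against 17.7% of all genes.

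Genes whose profiles over the 6 libraries were most like those of Cldn5 and Acta2 were sought among 12723 others with a mean of at least 5 CPM, by the root mean square difference of centred log2 CPM. For Cldn5, whose own profile had a root mean square of 0.43, the 5 nearest were Mmp14 (0.12), Slc7a11 (0.19), Hist1h1c (0.20), Kdr (0.20) and Hist1h4k (0.21). Kdr encodes the main signalling receptor for VEGF on endothelium, and measured 23.4, 20.6 and 26.6 CPM in WT and 20.6, 13.6 and 29.9 CPM in KO. Acta2 had a flatter profile of 0.14. Nearest to it were Pask (0.033) and 4 features of unknown status in GENCODE (Gm45204, Gm38253, Gm45191 and Gm42656, between 0.034 and 0.052). No other contractile gene was among these 5, but those with a mean under 5 CPM, such as Des and Lmod1, were outside the search.

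The same measure was applied to Slc2a1 and Mfsd2a after their values had been seen. For Slc2a1 the nearest gene was Notch4 (0.075), a Notch receptor of endothelial cells, followed by Prr5, Gm37885, Dnase1l2 and Klf15. For Mfsd2a it was again Notch4 (0.099), followed by Fkbp5, Hspa5, Slc2a1 and Gm37885. Notch4 measured 8.02, 6.73 and 7.14 CPM in WT and 8.0, 14.6 and 7.69 CPM in KO, so that KO library 2 alone was high, as for both carriers. Hspa5, the main chaperone of the endoplasmic reticulum, stood at 332 CPM in KO library 2 and between 143 and 179 CPM in the others.

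Fkbp5 and Klf15 are known to be induced by glucocorticoid hormones, so a list of 10 such genes was written after these values had been seen (Fkbp5, Sgk1, Tsc22d3, Zbtb16, Klf9, Klf15, Per1, Errfi1, Cdkn1a and Plin4). All 10 were highest in KO library 2, as were 21.8% of all genes tested. Fkbp5 and Klf15 had entered the list for their high level there, and the other genes were also listed with these data known. The count of 10 is therefore a description and not a test. The summed level of the 10 genes was 508, 494 and 446 CPM in WT and 576, 894 and 433 CPM in KO. Fkbp5, a chaperone that dampens the glucocorticoid receptor, stood at 46.3 CPM in KO library 2 and between 20.003 and 24.1 CPM elsewhere. Plin4, a lipid droplet protein, stood at 36.4 CPM there and between 2.40 and 5.12 CPM elsewhere. Of 8 genes known to rise in low oxygen, a list chosen in the same way because Slc2a1 is one such gene, 2 were highest in KO library 2 (Vegfa was not), and their summed level was 461, 457 and 460.1 CPM in WT and 469.7, 472 and 469.6 CPM in KO, so that every KO library lay above every WT library in the sum. Of the 8 genes, 5 were higher and 3 lower in KO, and the groups did not overlap for 1 with KO above, where 7.46% of all genes tested had every KO library above every WT library. The part of either programme in the levels of Slc2a1 and Mfsd2a was not tested.

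**Figure D4:**
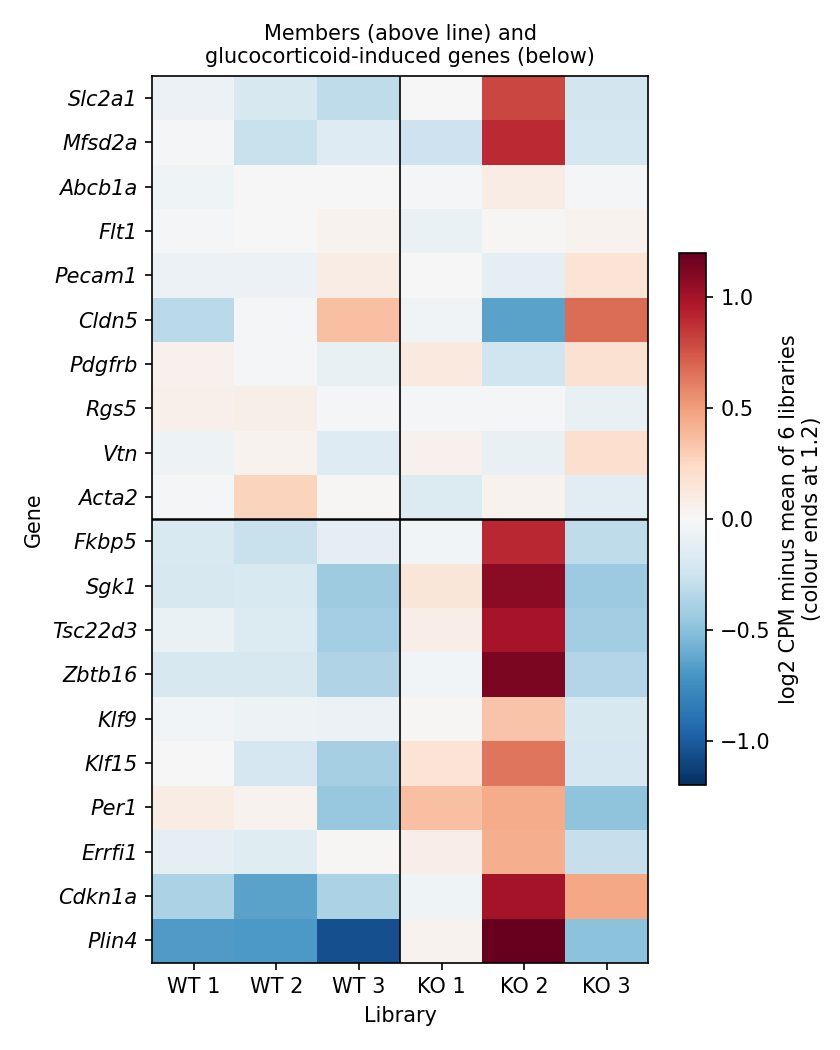
Log2 CPM minus the mean of the 6 libraries (colour, ending at 1.2 in either direction) for the 10 vascular genes above the line and 10 glucocorticoid-induced genes below it. The genes below the line were listed after these values had been seen. Slc2a1 and Mfsd2a share the red column of KO library 2 with all 10 genes below the line, where Cldn5 is blue.

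Other genes of the vessels were examined in 11 lists with 118 genes, of which 116 were tested. None had an adjusted p-value under 0.05, while 14 had an unadjusted one in edgeR's test, 11 with KO higher and 3 lower, or 12.1% of the 116 against 7.92% of all genes. DESeq2 gave an adjusted p-value to 17 of the 116, of which 1 passed (Slc7a5, adjusted p = 0.00157), against 26 of 4768 over all genes. Its unadjusted p-value was under 0.05 for 9 of the 116, against 1160 of all 21237 genes. With limma-voom 0 passed. The median log2 fold change was 0.037, against 0.00013 for all genes tested. Groups did not overlap for 18 of these genes, 11 with KO above and 7 with KO below WT, where 14.4% of all genes did not overlap.

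Of 17 other endothelial identity genes, 1 higher and 1 lower in KO had an unadjusted p-value under 0.05. Robo4, which steadies endothelial contacts, measured 7.72, 8.36 and 7.57 CPM in WT and 8.89, 9.68 and 10.1 CPM in KO (log2 fold change 0.28, SE 0.0959, edgeR adjusted p = 0.579). Ptprb, the endothelial phosphatase VE-PTP, measured 86.4, 86.9 and 82.6 CPM in WT and 80.1, 74.2 and 80.5 CPM in KO (-0.12, SE 0.0508, edgeR adjusted p = 0.614). The groups did not overlap for either gene, yet they differed in opposite directions. Itm2a, the most abundant of the list per length at 58.6, had a log2 fold change of -0.17 (edgeR adjusted p = 0.628, SE 0.0799), and -0.098 without KO library 2.

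None of the 8 further junction genes had an unadjusted p-value under 0.05, and their median log2 fold change was 0.045. Tjp1, the scaffold protein ZO-1 that many cell types make, was the most abundant of them per length at 90.3, and its log2 fold change was 0.020 (SE 0.0526, edgeR adjusted p = 0.947). The 5 genes of caveolae and fenestrae (Cav1, Cav2, Cavin1, Cavin2 and Plvap), the vesicle route that Mfsd2a is known to hold back, also gave 0 such genes, with values from -0.073 to 0.18. Cav2, the most abundant per length at 21.9, had a log2 fold change of 0.080 (edgeR adjusted p = 0.844, SE 0.0870), which was 0.0055 without WT library 1 and 0.17 with a correction for GC content.

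Of 11 further barrier transporters, 4 had an unadjusted p-value under 0.05, all with every KO library above every WT library. Over all genes tested, 4.54% had such a p-value with KO higher, and 7.46% had every KO library above every WT library. Slc7a5 and Slc3a2 encode both chains of the large neutral amino acid carrier. Slc7a5 measured 62.1, 56.1 and 46.7 CPM in WT and 70.0, 70.7 and 86.8 CPM in KO (log2 fold change 0.46, SE 0.103, edgeR adjusted p = 0.550). Slc3a2, the most abundant of the list per length at 100.5, measured 88.7, 84.7 and 84.5 CPM in WT and 94.4, 94.9 and 114.6 CPM in KO (0.24, SE 0.0709, edgeR adjusted p = 0.576), and the log2 fold change was 0.14 without KO library 3. The cationic amino acid carrier Slc7a1 had a log2 fold change of 0.17 (edgeR adjusted p = 0.579, SE 0.0591) and the efflux pump Abcc4 one of 0.15 (SE 0.0626, edgeR adjusted p = 0.616). Without a filter on low counts Slc7a5 (edgeR adjusted p = 5.34e-12) and Slc3a2 (0.00346) passed, and so did Tfrc, the transferrin receptor, with a log2 fold change of -0.21 (0.0233). Slc7a5, Slc3a2 and Slc7a1 are also made by other brain cells and are known targets of the stress factor ATF4, so in whole brain their levels are not those of the vessels alone. In KO library 2, 6 of the 11 transporters were at their lowest, against 21.5% of all genes, unlike Slc2a1 and Mfsd2a.

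Among 16 genes of VEGF, Tie and Notch signalling, Flt4 and Notch4 had an unadjusted p-value under 0.05. Flt4, the VEGF receptor of lymphatic and sprouting vessels, measured 4.53, 4.27 and 3.92 CPM in WT and 5.24, 5.08 and 4.92 CPM in KO (log2 fold change 0.26, SE 0.115, edgeR adjusted p = 0.622). That of Notch4 was 0.46 (SE 0.210, edgeR adjusted p = 0.628) and came from KO library 2, as given above, and with no filter on low counts Notch4 passed (edgeR adjusted p = 0.0110). KO library 3 was the highest of the 6 for 11 of the 16 genes, against 18.7% of all genes. KO library 2 and WT library 3 were each the lowest for 6, where KO library 2 was lowest for 21.5% of all genes. Vegfb, a ligand of Flt1 and the most abundant of the list per length at 80.8, had a log2 fold change of -0.014 (edgeR adjusted p = 0.968, SE 0.0539), and -0.13 with a correction for GC content.

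Of 16 genes of the Wnt pathway that builds the barrier, Adgra2 and Lrp5 had an unadjusted p-value under 0.05, both with KO above WT. Adgra2, the receptor GPR124 that presents Wnt7 ligands on brain endothelium, measured 15.3, 16.0 and 15.2 CPM in WT and 17.7, 18.3 and 17.5 CPM in KO (log2 fold change 0.20, SE 0.0674, edgeR adjusted p = 0.576), and its log2 fold change was 0.11 with a correction for GC content. The Wnt co-receptor gene Lrp5 had a log2 fold change of 0.20 (edgeR adjusted p = 0.581, SE 0.0726). Ctnnb1, which encodes beta-catenin in most cells, was the most abundant per length at 277 and had a log2 fold change of 0.028 (edgeR adjusted p = 0.884, SE 0.0390), and 0.0079 without KO library 3.

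**Figure D5:**
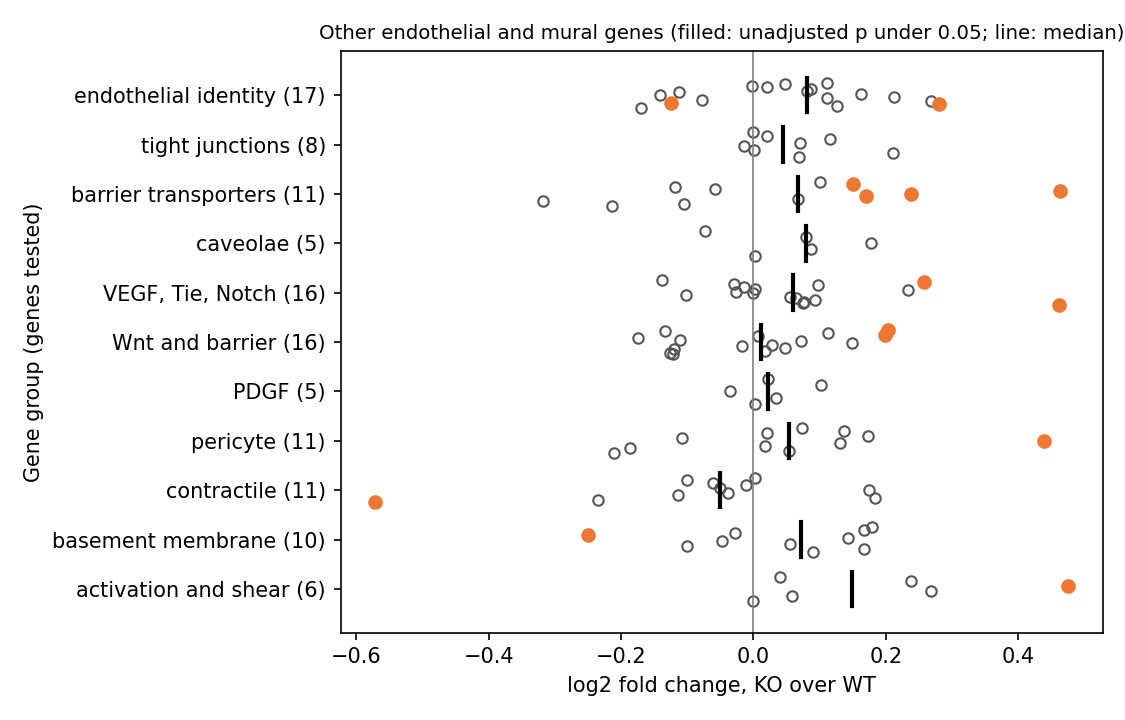
Log2 fold change (horizontal axis, KO over WT) of 116 other endothelial and mural genes in 11 groups (rows), filled where the unadjusted p-value was under 0.05, with each group's median as a line. Values lie on both sides of 0 in each group, and barrier transporters hold 4 filled points, all above 0.

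On the mural side, 0 of 5 further PDGF genes had an unadjusted p-value under 0.05. Pdgfra, the receptor of oligodendrocyte precursors and fibroblasts and the most abundant per length at 22.8, had a log2 fold change of 0.0028 (edgeR adjusted p = 0.994, SE 0.0593). Of 11 further pericyte genes 1 passed without adjustment: Higd1b, a protein related to a hypoxia-induced mitochondrial factor, measured 0.934, 1.31 and 1.09 CPM in WT and 1.35, 1.57 and 1.58 CPM in KO (log2 fold change 0.44, SE 0.196, edgeR adjusted p = 0.622). Mcam, the adhesion protein CD146 and the most abundant of the list per length at 25.2, measured 20.7, 27.8 and 22.6 CPM in WT and 21.7, 14.1 and 26.4 CPM in KO. Like Pdgfrb, it was lowest in KO library 2, where 6 of the 11 pericyte genes had their lowest value, against 21.5% of all genes. Its log2 fold change was -0.19 (SE 0.179, edgeR adjusted p = 0.822), with 0.027 when KO library 2 was left out and -0.40 when KO library 3 was.

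The 11 other contractile genes had a median log2 fold change of -0.051, and 1 had an unadjusted p-value under 0.05. Pln, the phospholamban that restrains the calcium pump of muscle, measured 1.84, 1.59 and 1.55 CPM in WT and 1.06, 1.19 and 1.11 CPM in KO (log2 fold change -0.57, SE 0.178, edgeR adjusted p = 0.576). Myl9, a light chain of smooth muscle myosin and the most abundant of the list per length at 27.1, had a log2 fold change of -0.011 (edgeR adjusted p = 0.987, SE 0.0974). Of 10 basement membrane genes, Lama4, the laminin chain of endothelium, had values of 16.6, 18.3 and 17.9 CPM in WT and 16.3, 12.1 and 16.0 CPM in KO (-0.25, SE 0.105, edgeR adjusted p = 0.622, unadjusted p = 0.0361), and the log2 fold change was -0.13 without KO library 2. Col4a2, a collagen IV chain and the most abundant there per length at 37.7, had a log2 fold change of 0.17 (edgeR adjusted p = 0.675, SE 0.0916), which was 0.080 without WT library 2 and 0.066 with a correction for GC content.

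Genes of endothelial activation and flow response came last. The selectins Sele and Selp, made by inflamed vessels, had between 0 and 6 counts per library and were not tested. Of the 6 tested, Klf2, a factor induced by blood flow, had an unadjusted p-value under 0.05. It measured 4.42, 3.83 and 4.13 CPM in WT and 5.78, 7.49 and 4.01 CPM in KO (log2 fold change 0.48, SE 0.192, edgeR adjusted p = 0.609), again highest in KO library 2. The difference was 0.24 without that library and 0.68 without KO library 3 on the log2 scale.

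Markers of other cells were set beside these values. All 6 neuronal, 6 astrocyte, 6 microglial, 6 oligodendrocyte, 5 choroid plexus, 7 meningeal fibroblast and 5 blood genes were tested, and none was at 0. The choroid plexus epithelium also carries GLUT1. Its 5 markers summed to between 308 and 363 CPM in WT and to 440.2, 429.5 and 368 CPM in KO libraries 1 to 3. The 5 red cell genes summed to between 109 and 149 CPM in WT and to 247, 98.3 and 181 CPM in KO libraries 1 to 3. Meningeal fibroblast genes, which come with vessels of the brain surface, summed to between 84.7 and 97.6 CPM in WT and between 76.7 and 97.0 CPM in KO. The neuronal sum lay between 5166 and 5457 CPM in WT and between 4992 and 5290.0 CPM in KO, the oligodendrocyte sum between 4074 and 4498 CPM and between 3495 and 4197 CPM, and the microglial sum between 173 and 215 CPM and between 169 and 205 CPM. The astrocyte sum lay between 4539 and 4767 CPM in WT and between 4400 and 4596 CPM in KO. Among its genes Gfap, the filament of reactive astrocytes, stood at 248 CPM in KO library 3, where Cldn5 and Kdr were highest, and between 115 and 140 CPM in the others. In the same library 3 of the 6 astrocyte genes, Gfap among them, were at their highest and the other 3 at their lowest, and the sum was lowest. The part of these cells in the vascular values was not tested.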

How the data were processed

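Whole brain RNA was measured in 3 KO and 3 WT libraries. Tables in the layout of STAR gene counts were deposited, with raw whole-number counts per gene in 3 strand columns. The submitters' processing notes name cutadapt 1.9.1 and STAR 2.7.0f. The genome build and annotation are not given in the sources used here, but the gene identifiers are exactly those of GENCODE M21 (GRCm38), which gave names, positions and lengths. The column holding at least 80% of stranded counts in every library was used. The rows that name no gene held between 57.7% and 60.2% of reads and were left out of library sizes and tests.

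Counts were tested in R 4.3.3 with edgeR 4.0.16 (filterByExpr, TMM, quasi-likelihood, all 6 libraries, genotype alone), with Benjamini-Hochberg adjustment over all genes tested. The SE is the log2 fold change over the square root of F. The test was checked on simulated counts. Genes named were the 10 members, their paralogs and, in each list, the most abundant per length and those with non-overlapping groups and an unadjusted p-value under 0.05; others were chosen after their values were seen. The members and lists were chosen with earlier results of these data known. Alternatives used DESeq2 1.42.0 and limma 3.58.1. Libraries of a group differed beyond sampling noise, so they were not the same library sequenced again, and each was taken as a replicate. They are described as biological triplicates, but nothing states whether each came from a separate animal. The p-values therefore measure the spread between these samples. No sequence was printed for 5 members' upstream regions that the results do not turn on or for the 2 that RefSeq's table does not list.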

Additional observations from a re-analysis of the deposited data

How the results depend on the processing

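The alternatives were set with the design, except the GC corrections, which were added after seeing the data. The 10 genes kept their direction and their side of the threshold in 146 of 160 refits. DESeq2 gave 7 of the 10 no adjusted p-value, and these were counted there as not passing. Without a filter on low counts 298 of the 37245 genes tested passed, 223 higher and 75 lower. Among them were 2 of the 10 (Slc2a1 at 0.45, edgeR adjusted p = 9.30e-12, and Mfsd2a at 0.39, edgeR adjusted p = 0.00735). They also held 3 barrier transporters, 1 VEGF, Tie and Notch gene (Notch4) and 4 blood genes. The choroid plexus, astrocyte, microglia and oligodendrocyte lists had 1 gene each. The SE of each vessel gene that passed was smaller than in the main fit, for Slc2a1 0.058 against 0.198. With DESeq2's Wald test 26 genes passed (18 higher in KO, 8 lower), with 1 barrier transporter (Slc7a5), 1 choroid plexus and 1 oligodendrocyte gene and none of the 10. It gave an adjusted p-value to 4768 of 21237 genes and to 3 of the 10, and none to Trmt1l, so the others could not pass. Over all alternatives the adjusted p-value of Slc2a1 ranged from 9.30e-12 to 0.9999.

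Total counts turned Pdgfra to -0.0069 and a mean count of at least 50 turned it to -0.0024. GC correction turned Cldn5 to -0.039 and Pdgfrb to -0.0064. With the replicate block 4 genes passed (2 higher in KO), none of the 10. The replicate block with GC correction gave -0.086 for Cldn5 and -0.015 for Pdgfrb. Deviations of same-numbered libraries correlated at 0.040, -0.031 and -0.058 across genes, so the numbers do not pair the samples. The cause of these changes was not tested.

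Leaving out 1 library at a time gave from 2 to 5 genes in all and from 0 to 2 higher, the most without KO replicate 3. The log2 fold change then ranged from -0.34 to 0.33 for Cldn5, from -0.086 to 0.58 for Mfsd2a, from -0.038 to 0.023 for Flt1, from -0.0089 to 0.047 for Abcb1a, from -0.036 to 0.10 for Pecam1 and from -0.032 to 0.17 for Pdgfrb. It ranged from -0.025 to 0.049 for Tjp1, from -0.081 to 0.023 for Myl9, from -0.036 to 0.0011 for Vegfb, from -0.062 to 0.042 for Pdgfra, from -0.40 to 0.027 for Mcam and from -0.22 to 0.0058 for Acta1. With longest transcripts the per-length level became 78.0 for Rgs5, 26.1 for Abcb1a, 40.8 for Flt1, 20.5 for Pdgfrb and 19.7 for Pecam1, since the length itself changed.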
